A study of Rattus norvegicus with 17 samples.

Results

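The genes described here are the ligands and receptors of the classical axon guidance systems, measured as RNA in the hippocampus of adolescent Long-Evans rats. They were chosen by gene symbol alone: semaphorins of classes 3 to 7 and their plexin and neuropilin receptors, ephrins and Eph receptors, Slits and Robo receptors, netrins, and the Unc5 receptors with Dcc. Of the 34322 genes in the count table, 68 met this rule, 35 of them ligands and 33 receptors. There were 20 semaphorins, 9 plexins, 2 neuropilins, 8 ephrins, 14 Eph receptors, 3 Slits, 3 Robo receptors, 4 netrins and 5 genes of the Unc5 and Dcc group.

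The study asked how moderate ethanol in the diet of the pregnant dam is followed by differences in hippocampal RNA of the offspring. ET rats came from a dam given a liquid diet with 6.7% ethanol from gestational day 0 to 20, PF rats from a dam that was pair-fed a liquid diet, and AD rats from a dam with free access to standard chow. Offspring were 36 to 38 days old at collection, and 1 litter stood for each diet, so diet and litter cannot be told apart. Each library came from 1 whole hippocampus of 1 animal. There were 5 ET libraries (3 male, 2 female), 6 PF libraries (3 male, 3 female) and 6 AD libraries (3 male, 3 female), and the right hippocampus was used in 4 of the 17. The 3 libraries that the study dropped from its final comparisons after a principal component analysis were also left out of the fits here, which leaves 4 ET, 5 PF and 5 AD libraries.

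Guidance ligands and receptors steer growing axons during development: semaphorins signal through plexins, with neuropilins as binding partners for most class 3 semaphorins, ephrins through Eph receptors, Slits through Robo receptors and netrins through Dcc and Unc5 receptors. Many stay in use after wiring is complete. In the hippocampus they are known for roles in mossy fibre and CA connectivity, dendritic spine number and synaptic plasticity, and several are made by glia or vessels as well as by neurons.

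The 17 libraries held between 10853947 and 17498392 counts, with a median of 13538433. The values below are normalised counts, that is counts scaled to a common effective library size by TMM, and they are not divided by gene length, so levels are compared between libraries and not between genes. The list of 7 hippocampal excitatory neuron markers was present in all libraries, with sums between 79294 and 121220. The summed counts of 12 choroid plexus markers were 102420, 116740 and 129210 in the 3 libraries left out. They were 15474 in ET replicate 1 and 17001 in PF replicate 2, and at most 3048 elsewhere. The 8 pineal markers summed to 14657 in AD replicate 6 and to at most 131 in the other libraries. In 2 AD libraries the sex-linked transcripts went against the sex label, so sexes were compared within ET and PF only. In whole tissue, fewer cells of a type and less RNA per cell cannot be told apart.

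Of the 68 genes, 65 had enough counts to be tested in each diet comparison. Efna4, an A-type ephrin, stayed between 5.20 and 11.5 normalised counts over the 17 libraries. Epha1, an Eph receptor best known from epithelia, lay between 3.26 and 14.2, and Ntn5, a netrin family member, between 1.38 and 7.42. These 3 genes were not tested. Differences were tested with edgeR's quasi-likelihood test over all genes with sufficient counts, with Benjamini-Hochberg adjustment.

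In all, 4 genes passed adjusted p below 0.05 in at least 1 diet comparison: Unc5b, Sema6a, Sema7a and Epha10. Their upstream sequences are shown because these are the genes called in the diet comparisons described below. A link between these sequences and diet was not tested. Each is the 250 bases before the annotated start in RefSeq, rat assembly GRCr8, written 5′ to 3′ on the strand of the gene. Capitals mark GC boxes, that is GGGCGG or its reverse complement CCGCCC. Unc5b lies on the minus strand at chr20:29307271-29307520, Sema6a on the minus strand at chr18:42358541-42358790, Sema7a on the plus strand at chr8:67244068-67244317 and Epha10 on the plus strand at chr5:142424046-142424295.
Unc5b: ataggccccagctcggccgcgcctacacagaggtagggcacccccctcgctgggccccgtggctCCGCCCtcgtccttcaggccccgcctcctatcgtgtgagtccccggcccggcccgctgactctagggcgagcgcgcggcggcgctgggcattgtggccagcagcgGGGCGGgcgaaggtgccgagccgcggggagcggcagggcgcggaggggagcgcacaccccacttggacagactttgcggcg
Sema6a: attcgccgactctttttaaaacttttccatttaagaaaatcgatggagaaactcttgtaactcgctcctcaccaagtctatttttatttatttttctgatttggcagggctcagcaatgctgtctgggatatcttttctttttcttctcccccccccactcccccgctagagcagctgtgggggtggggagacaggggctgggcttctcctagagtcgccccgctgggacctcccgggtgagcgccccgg
Sema7a: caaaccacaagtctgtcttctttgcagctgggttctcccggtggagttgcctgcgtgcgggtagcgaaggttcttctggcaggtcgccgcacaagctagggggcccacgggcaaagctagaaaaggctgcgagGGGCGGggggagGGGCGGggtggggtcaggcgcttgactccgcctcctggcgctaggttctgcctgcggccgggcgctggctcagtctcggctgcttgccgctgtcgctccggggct
Epha10: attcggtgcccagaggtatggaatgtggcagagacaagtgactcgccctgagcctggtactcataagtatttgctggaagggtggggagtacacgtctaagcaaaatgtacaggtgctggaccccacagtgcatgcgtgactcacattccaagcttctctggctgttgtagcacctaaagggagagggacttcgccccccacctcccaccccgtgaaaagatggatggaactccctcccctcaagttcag

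The Unc5b and Sema7a windows held 2 GC boxes each, with 30 and 20 CpG dinucleotides and 75.2% and 67.6% G and C. The Sema6a and Epha10 windows held no GC box, with 10 and 6 CpG dinucleotides and 52% and 54.4% G and C. Upstream sequence was at hand for 53 of the 68 genes, and 30 of these (56.6%) held a GC box on either strand, beside 30.5% of 33469 rat promoters of the same length, noncoding genes included. The TATA motif TATAAA, in either orientation, was in 0 of the 53 and in 12.9% of all promoters. CCAAT was found in 34% of both sets, and the E-box CACGTG in 7.55% of the members and 5.59% of all. The median G and C content was 63.6% for the members and 51.2% for all promoters.

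None of the 65 genes met the study's threshold, an adjusted p below 0.01 together with a log2 fold change larger than 1.5 in either direction. That count was 0 for ET against PF, where 2.17% of all tested genes met it, 0 for ET against AD (0.0127% of all genes) and 0 for PF against AD (2.05%). At adjusted p below 0.05, 2 of 65 (3.08%) differed between ET and PF, beside 4.13% of all genes. No gene of the 65 differed between ET and AD (0.0127% of all genes), and 3 (4.62%) differed between PF and AD (5.17% of all genes). These shares lie near or below the background. The ET against PF and PF against AD comparisons share the PF libraries, so their results are not independent of each other.

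By direction, ET against PF had 1 gene higher (0.541% of all genes) and 1 lower (3.59%), and PF against AD had 0 higher (4.32%) and 3 lower (4.62% of the 65 beside 0.846% of all genes). At an unadjusted p below 0.05, 7 of the 65 genes (10.8%) separated ET from PF beside 11.9% of all genes. Of these 7, 6 were higher in ET (4.72% of all genes) and 1 was lower (7.21%). For PF against AD the count was 13 (20%) beside 16.4%, with 6 higher (9.66%) and 7 lower (6.77%) in PF. For ET against AD it was 0 beside 2.74%. Libraries of both diets did not overlap for 3 genes in ET against PF (6.76% of all genes), 0 in ET against AD (1.21%) and 3 in PF against AD (6.62%).

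**Figure D1:**
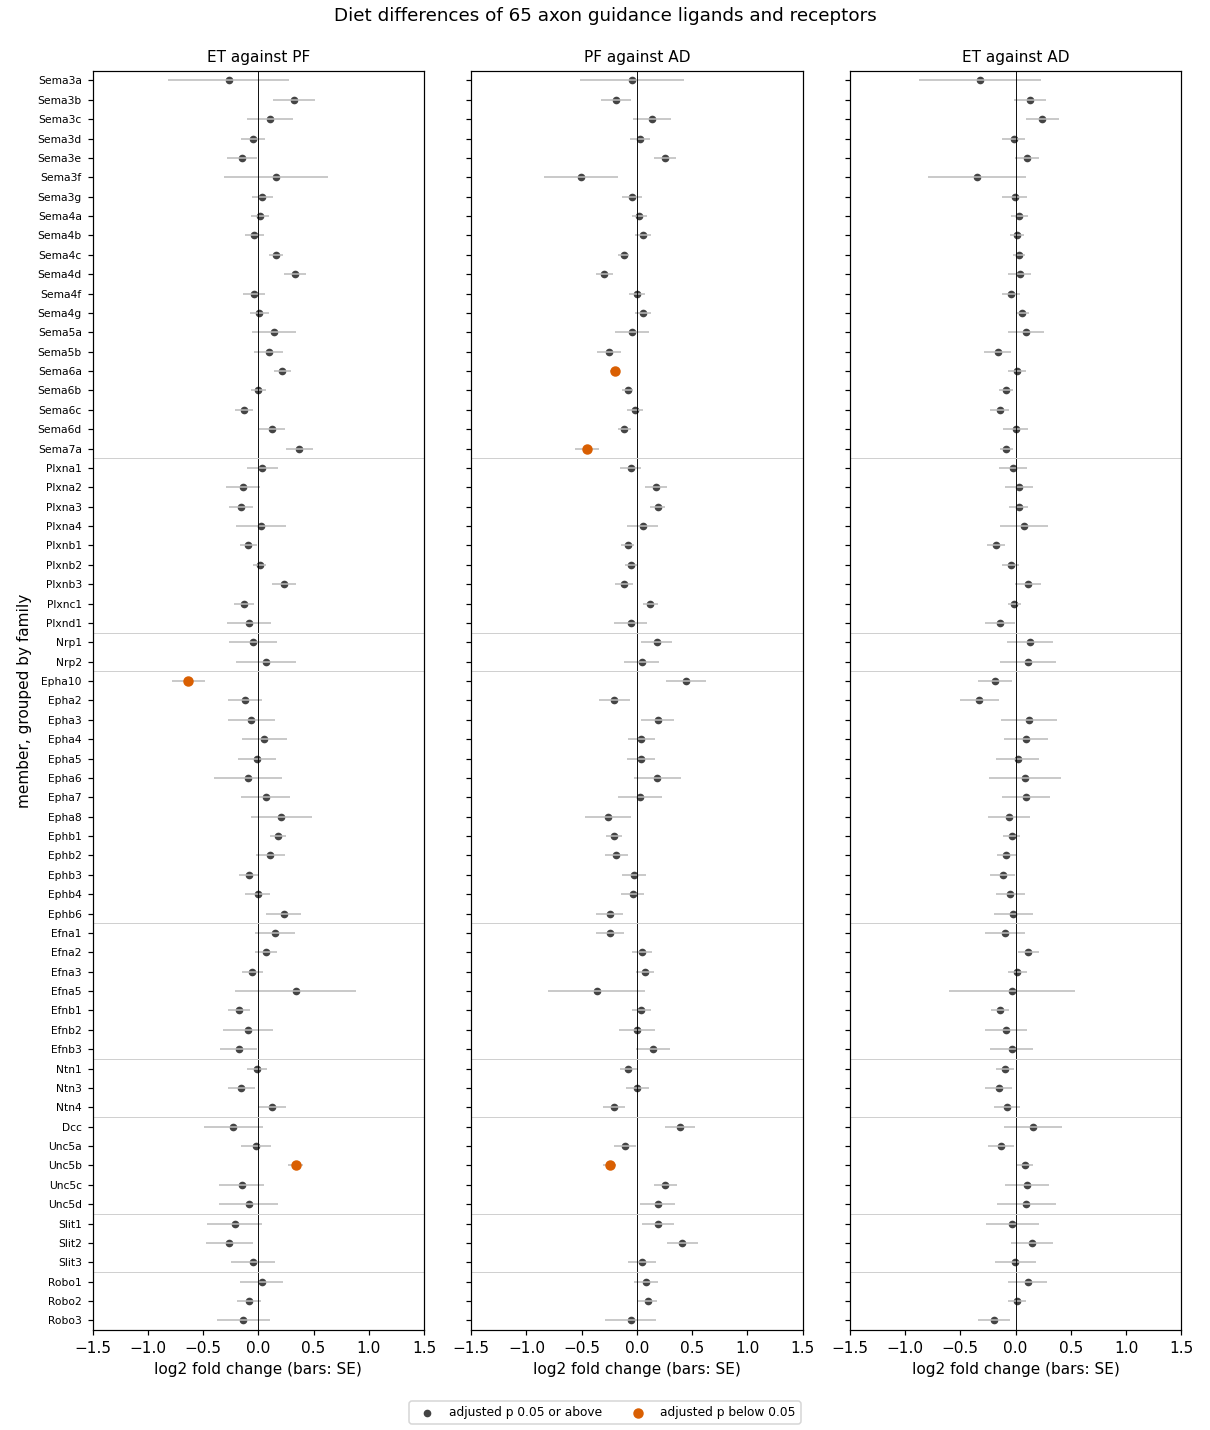
Log2 fold changes (x axis) of the 65 tested genes, grouped by family (y axis), in the 3 diet comparisons, with bars for the SE. Orange points mark adjusted p below 0.05: Epha10 and Unc5b for ET against PF, and Sema6a, Sema7a and Unc5b for PF against AD.

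Median log2 fold changes over the 65 genes were close to those of all genes: -0.01 beside 0.01 for ET against PF, -0.01 beside 0.00 for ET against AD, and 0.00 beside 0.00 for PF against AD. In ET against PF, 17 of the 33 tested ligands and 13 of the 32 tested receptors had positive values. By family, the 20 semaphorins had 13 positive and 7 negative values in ET against PF and 6 positive and 14 negative values in PF against AD. Each of the 3 Slits was negative in ET against PF and positive in PF against AD, and none passed the test. No plexin, neuropilin, ephrin, netrin, Slit or Robo gene reached adjusted p below 0.05 in any diet comparison.

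Values are given in the order ET replicates 1, 3, 4 and 5, then PF replicates 1, 2 and 3, animal 11f5 and replicate 6, then AD replicates 1, 2, 3, 5 and 6. Unc5b encodes a netrin receptor that mediates repulsion and is also prominent in endothelium. Its normalised counts were 1240.5, 1215, 1089.5 and 1292 in ET, 918, 1047, 874, 963 and 979 in PF, and 1066, 1167, 1150.1, 1048 and 1248 in AD. Every ET and AD library was above every PF library. The means were 1209 ± 86.2 (SD, n = 4), 956 ± 65.3 (SD, n = 5) and 1136 ± 80.9 (SD, n = 5). In ET against PF the log2 fold change was 0.34 (SE 0.07, adjusted p = 0.0142 by edgeR's quasi-likelihood test), and in PF against AD it was -0.25 (SE 0.06, adjusted p = 0.0332). Between ET and AD it was 0.09, with a 95% interval from -0.05 to 0.23. The call in ET against PF was lost without ET replicate 5 (adjusted p = 0.0592), in the left hippocampi alone (0.0947) and without ET replicate 1 and PF replicate 3 together (0.0739). In PF against AD it was lost without PF replicate 1 or 3, animal 11f5 or AD replicate 2, 3 or 6, with adjusted p between 0.0548 and 0.0886. It was also lost in the left hippocampi alone (adjusted p = 0.164), without genes that overlap another gene (0.0664), and without PF replicate 3 and AD replicate 6 together (0.0938).

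Sema6a encodes a transmembrane semaphorin that signals through class A plexins. It was counted at 1132, 1306, 1025 and 1305 in ET, at 988, 1069, 1007, 1041 and 1024 in PF, and at 1128, 1281, 1181, 1117 and 1188 in AD. The PF values were the narrowest of the 3 diets, and all were below all AD values, while ET replicate 4 lay inside the PF range. The log2 fold change was -0.20 in PF against AD (SE 0.05, adjusted p = 0.0216) and 0.22 in ET against PF (SE 0.08, adjusted p = 0.218). With all 17 libraries the PF against AD difference was -0.17 with adjusted p = 0.0856, and without PF replicate 1 or AD replicate 2 the adjusted p was 0.0629 or 0.0526. The call was also lost in the left hippocampi alone (adjusted p = 0.138), in 1 fit of the 3 diets (0.116) and without PF replicate 3 and AD replicate 6 together (0.067). Another annotated gene, LOC120098258, overlaps Sema6a and had 197 to 380 normalised counts. The overlap is between whole annotated spans, and reads could count for both genes only where exons overlap, which was not looked at. The part of LOC120098258 in the Sema6a values was not tested.

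Sema7a encodes a membrane-linked semaphorin that binds integrins and plexin C1 and is known for roles in axon growth and synapse refinement. Its values were 3470.0, 3116, 3266 and 3233 in ET, 1935, 2443, 2964, 2264 and 3029 in PF, and 3488, 3790.4, 3456, 3286 and 3274 in AD. PF was lower than both other diets in every library, and its libraries also spread the most. The means were 3271 ± 147 (SD, n = 4) in ET, 2527 ± 466.2 (SD, n = 5) in PF and 3459 ± 209 (SD, n = 5) in AD. The log2 fold change was -0.45 in PF against AD (SE 0.11, adjusted p = 0.0366) and 0.37 in ET against PF (SE 0.13, adjusted p = 0.197). In the left-out AD library the value was 2461, inside the PF range, and with all 17 libraries the PF against AD adjusted p was 0.0657. The call was also lost without PF replicate 2, animal 11f5, or any single AD library, with adjusted p between 0.0527 and 0.100, and when genes that overlap another gene were removed (0.0634).

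Sema4d encodes a transmembrane semaphorin that binds plexin B1 and is made by oligodendrocytes among other cells. It was counted at 2485, 2274, 1895 and 2489 in ET, at 1627, 1779.7, 1786, 1794 and 2091 in PF, and at 1906, 2536, 2299, 2149.8 and 2244 in AD. The diets overlapped through PF replicate 6, ET replicate 4 and AD replicate 1. The log2 fold changes were 0.33 in ET against PF (SE 0.10, adjusted p = 0.112) and -0.29 in PF against AD (SE 0.08, adjusted p = 0.0611). DESeq2 gave adjusted p = 0.0385 and 0.0158 for the same comparisons.

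Summed oligodendrocyte transcripts also had their lowest median in PF. The summed counts of 7 oligodendrocyte markers ranged from 162460 to 217060 in ET (median 186490), from 124980 to 165820 in PF (median 142550) and from 142990 to 213040 in AD (median 180570), so that the diets overlapped. Of the 7, 6 had positive log2 fold changes in ET against PF, of which Ermn (0.38, adjusted p = 0.0484 by edgeR's quasi-likelihood test) passed. In PF against AD, 6 of the 7 were negative and 1 was positive, and Mag alone passed (-0.40, adjusted p = 0.0366). Of 6 oligodendrocyte precursor markers, 4 were negative and 2 positive in PF against AD. Olig1 (-0.35, adjusted p = 0.0296) and Olig2 (-0.34, adjusted p = 0.0451) were the only ones of these that passed. In ET against PF, 4 of the 6 were positive and 2 negative, and none passed. None of the oligodendrocyte or precursor markers was at 0 in any library. The 8 endothelial markers summed to 3854 to 5216 in ET, 4509 to 5363 in PF and 4554 to 5351 in AD, and 0 of 8 passed the test in any diet comparison. The 10 thalamus markers summed to 1564 to 3050 in ET, 1102 to 1723 in PF and 1764 to 1886 in AD. All 8 that could be tested had positive values in ET against PF, of which Tnnt1 alone passed (log2 fold change 1.60, adjusted p = 0.00944). In PF against AD, 7 of 8 had negative values, of which Tnnt1 alone passed (-1.80, adjusted p = 0.000736). Gbx2 was at 0 in several libraries. The part of these cell types in the Unc5b, Sema6a, Sema7a and Sema4d values was not tested.

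**Figure D2:**
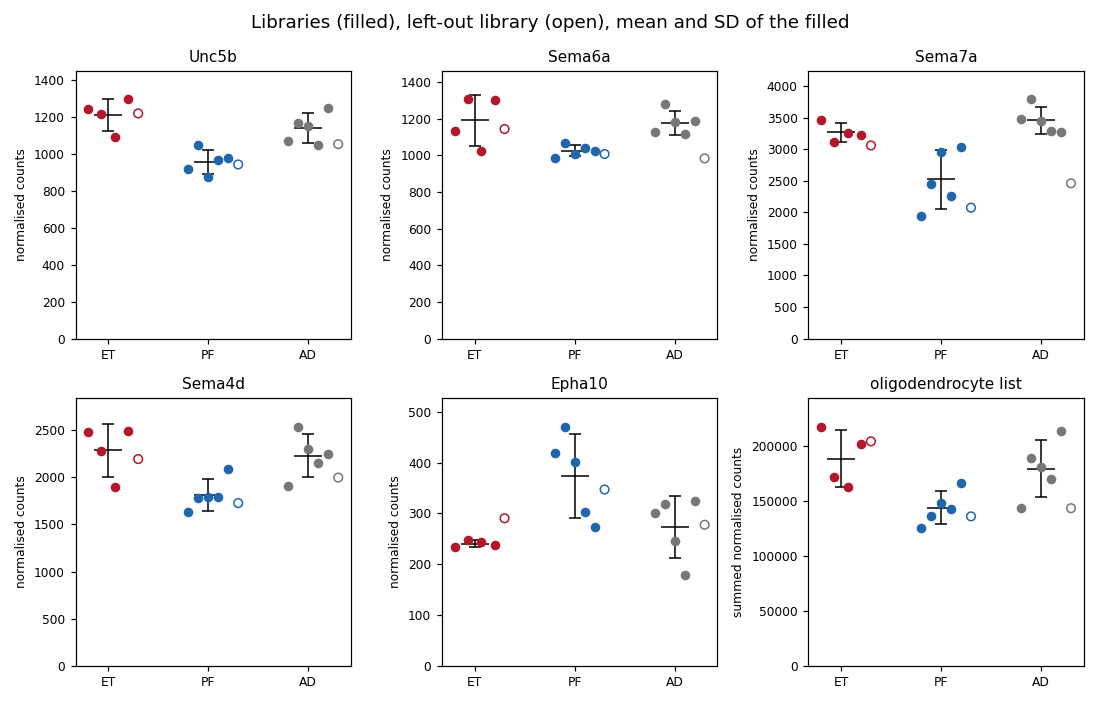
Normalised counts (y axis) of Unc5b, Sema6a, Sema7a, Sema4d and Epha10 and the summed counts of 7 oligodendrocyte markers in each library, by diet (x axis). Filled points are the 14 libraries of the fits with their mean and SD, and open points the 3 libraries left out. The PF mean lies below those of the other diets for the semaphorins, Unc5b and the marker sum, and Epha10 runs the other way.

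Epha10 was the only one of the 65 genes that was lower in ET than in PF at adjusted p below 0.05. It encodes an Eph receptor without kinase activity. Its values were 233, 248, 243 and 237 in ET, 418, 471, 402, 302 and 272 in PF, and 299.9, 318, 245, 179 and 324 in AD. The ET libraries of the fits lay close together, below all PF libraries, while the AD libraries overlapped both. The left-out ET library was at 290, above PF replicate 6. The log2 fold change was -0.64 in ET against PF (SE 0.15, adjusted p = 0.0418), 0.45 in PF against AD (SE 0.18, adjusted p = 0.234) and -0.19 in ET against AD (95% interval -0.49 to 0.11). The call rested on each of 7 libraries: adjusted p was between 0.0858 and 0.121 when ET replicate 1, 3, 4 or 5 or PF replicate 1, 2 or 3 was left out. It was 0.0547 in 1 fit of the 3 diets and 0.165 without ET replicate 1 and PF replicate 3 together. The small noncoding gene LOC120103229 overlaps Epha10 and had at most 2.07 normalised counts in the 14 libraries.

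By sex, Epha10 in the PF libraries was at 418, 471 and 402 in females and at 302 and 272 in males, with 347 in the left-out male. In ET, the females were at 233 and 248 and the males at 243 and 237, with 290 in the left-out male. In males against females within ET and PF, its log2 fold change was -0.33 (SE 0.12, adjusted p = 1.00 by edgeR's quasi-likelihood test), and its sex by diet interaction was -0.57 (SE 0.15, adjusted p = 1.00). Neither passed the adjustment over all genes.

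The other genes with an unadjusted p below 0.05 in ET against PF were Ephb1, a receptor of B-type ephrins, and Sema4c, a plexin B2 ligand. Ephb1 was at 773 ± 48.2 (SD, n = 4) in ET, 685 ± 52.8 (SD, n = 5) in PF and 791 ± 75.3 (SD, n = 5) in AD. Sema4c was at 311 ± 13.1, 279 ± 13.4 and 304 ± 7.66 (SD, same n). Their adjusted p-values were 0.342 and 0.325 in ET against PF, and 0.171 and 0.235 in PF against AD, by edgeR's quasi-likelihood test. Sema5b, a transmembrane semaphorin with thrombospondin repeats, completed the genes with lower values in PF than in AD (249.6 and 297 on average, adjusted p = 0.285).

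In PF against AD, 6 genes had higher values in PF at an unadjusted p below 0.05, and none passed adjustment. Besides Epha10 they were Slit2, a Robo ligand, the netrin receptors Dcc and Unc5c, Plxna3, which serves class 3 semaphorins, and Sema3e, the plexin D1 ligand. Slit2 was counted at 1119.6, 847, 1017, 781 and 663 in PF and at 679, 641, 577, 821 and 617 in AD, so the diets overlapped (log2 fold change 0.41, SE 0.14, adjusted p = 0.142 by edgeR's quasi-likelihood test). Dcc was at 964, 873, 1323, 887 and 890.3 in PF and at 816, 695, 779.9, 899 and 581 in AD (log2 fold change 0.39, SE 0.14, adjusted p = 0.159). Plxna3 was at 788 ± 79.2 in PF and 692 ± 10.3 in AD (SD, n = 5 each, adjusted p = 0.159). Without PF replicate 6, Slit2 (log2 fold change 0.50, adjusted p = 0.0336) and Plxna3 were called as higher in PF, and Plxna3 was also called in the left hippocampi alone. Within ET, Dcc ran from 429 to 1302, which covers the PF libraries but 1.

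ET and AD were the diets with the fewest differences. The smallest p among the 65 genes was 0.0580, for Plxnb1, the receptor of Sema4d, at 2263 ± 259 in ET (SD, n = 4) and 2553 ± 164 in AD (SD, n = 5). The next were Epha2, Efnb1, Sema3c and Sema6c, at log2 fold changes of -0.33, -0.14, 0.24 and -0.14, and all 5 had an adjusted p of 1.00 by edgeR's quasi-likelihood test. The 95% interval of the ET to AD difference lay within 0.5 log2 units of 0 for 51 of the 65 genes and within 1 unit for 62. The exceptions at 1 unit were Efna5, Sema3a and Sema3f.

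Those 3 ligands varied most between libraries of the same diet. Sema3a is a secreted repellent that signals through Nrp1 and class A plexins. It was at 278, 51.3, 71.3 and 190.0 in ET, at 101, 202, 59.4, 323 and 203 in PF, and at 232, 142, 111, 72.4 and 365 in AD. Efna5, an A-type ephrin that repels axons in topographic maps, was at 618, 176, 79.7 and 383 in ET, at 191, 260.4, 76.7, 344 and 373 in PF, and at 360.3, 345, 175, 119 and 605 in AD. Sema3f, the secreted ligand of Nrp2, was at 122.7, 32.7, 27.8 and 90.3 in ET, at 47.8, 74.99, 22.8, 92.4 and 67.4 in PF, and at 94.3, 91.8, 74.4, 41.4 and 132 in AD. In each of the 3 genes ET replicate 1 and AD replicate 6 were the highest of their diet, PF replicate 3 was the lowest of PF, and AD replicate 5 the lowest of AD.

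The SD of log2 values around the diet means was 1.03 for Efna5, 0.99 for Sema3a and 0.81 for Sema3f. The median of this SD was 0.21 over the 65 genes and 0.15 over 15823 genes, and 12 of the 65 (18.5%) exceeded the value of 0.37 that 10% of all genes exceeded. Those 3 genes had the widest spread among the 65, followed by Epha6 (0.54), Unc5d (0.44), Nrp2 (0.43), Epha8 (0.42), Dcc (0.42) and Robo3 (0.40).

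Most of the receptors in that list ran opposite to the 3 ligands in the same libraries. Epha6, a receptor of A-type ephrins, was at 1872, 6466, 5113 and 3704 in ET, at 3966, 4252, 6695, 3954 and 3954 in PF, and at 4153, 4453, 4437, 4932 and 2169 in AD. Nrp2, the class 3 semaphorin receptor that binds Sema3f, was at 788, 2168, 2007 and 1357 in ET, at 1674, 1327, 1956, 1098 and 1456 in PF, and at 1418, 1445, 1581, 1791 and 1063 in AD. Unc5d, a netrin receptor family member, was at 628, 1812, 1671 and 1140.2 in ET, at 1450.1, 1189, 1864, 1110.2 and 1351 in PF, and at 1150.5, 1176, 1350.5, 1566 and 883 in AD. For Epha6, Unc5d, Nrp2 and Dcc alike, ET replicate 3, PF replicate 3 and AD replicate 5 were the highest of their diets, and ET replicate 1 and AD replicate 6 the lowest. The same held for the ligand Slit1 and the receptor Epha3, next in spread, so the pattern was not confined to receptors. Epha8 was also lowest in ET replicate 1 and AD replicate 6 and highest in AD replicate 5, but its highest ET and PF libraries were ET replicate 4 and PF replicate 6. Robo3, a Robo family receptor, did not share the pattern: it was highest in ET replicate 5, PF replicate 3 and AD replicate 6, and lowest in AD replicate 5.

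The summed CA pyramidal and dentate granule cell markers were also lowest in ET replicate 1 and AD replicate 6. The summed counts of 6 CA pyramidal cell markers were 6848 in ET replicate 1 and 7485 in AD replicate 6, beside 9283 to 12554 in the other 12 libraries of the fits. The 6 dentate granule cell markers summed to 1448 and 1714 in the same libraries, beside 1929 to 2888 in the other 12. In PF replicate 3 the sums were 11858 and 2888, the highest of the PF libraries for both. In ET both sums were highest in ET replicate 4 (12554 and 2792) and not in ET replicate 3 (10909 and 2714). In AD the CA sum was highest in AD replicate 2 (11773) and the dentate sum in AD replicate 5 (2636). Not all neuronal markers followed. The 7 excitatory neuron markers summed to 79294 in ET replicate 1, the lowest, but to 96842 in AD replicate 6, inside the 85178 to 121220 of the other 12. Plk5, of the dentate list, was highest in AD replicate 6 (203). Dsp, of the same list, was at 72.0 in AD replicate 6, above AD replicates 1 and 2 (63.0 and 63.7). AD replicate 6 was also the library with pineal transcripts and ET replicate 1 one of those with choroid plexus transcripts. The part of tissue composition in the spread of the guidance genes was not tested. ET replicate 1 was the lowest of its diet for 37 of the 65 genes (56.9%, beside 35.6% of all genes) and AD replicate 6 for 32 (49.2%, beside 32.4%). Without ET replicate 1, PF replicate 3 and AD replicate 6, 0 genes passed adjusted p below 0.05 in ET against PF, 0 in ET against AD and 1, Sema7a, in PF against AD. That fit was added after the data had been seen.

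**Figure D3:**
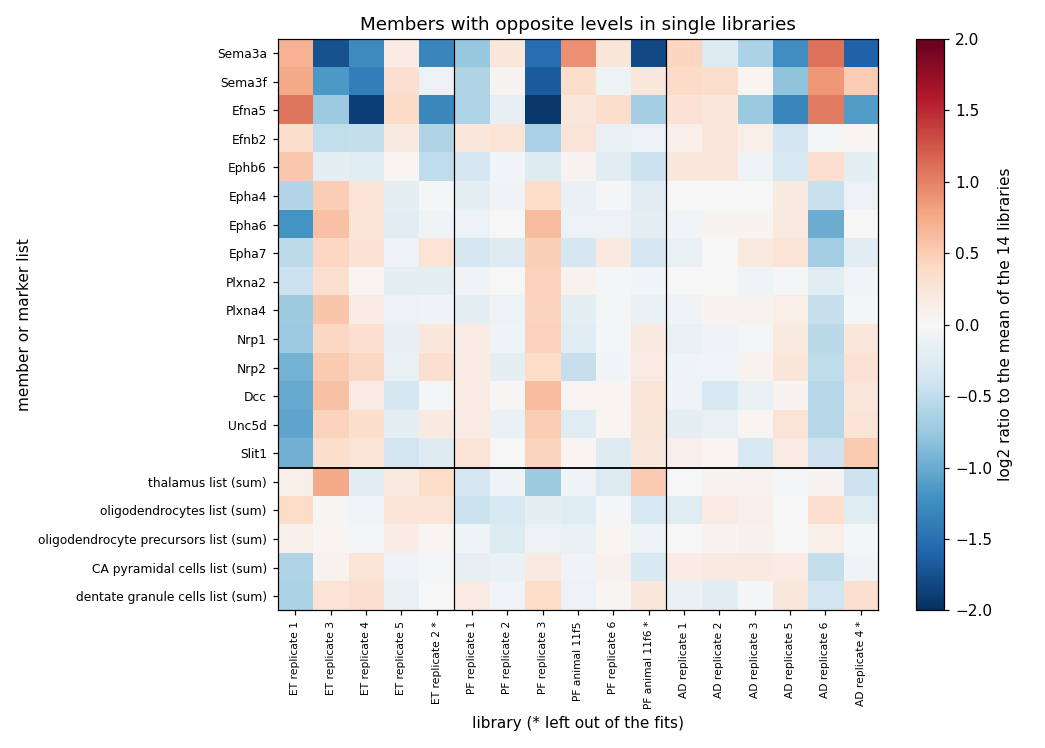
Log2 ratio of each library to the mean of the 14 libraries of the fits (colour scale from -2 to 2) for 15 guidance genes and 5 summed marker lists (rows) in the 17 libraries (columns, ordered by diet, with an asterisk for the libraries left out). Sema3a, Sema3f and Efna5 are high in ET replicate 1 and AD replicate 6 and low in PF replicate 3, and the genes from Epha4 to Slit1 show the reverse in these libraries.

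Among ligands and receptors known to act together in the hippocampus, no diet difference passed the test for Sema3f with Nrp2 and Plxna3, Sema3a with Nrp1 and Plxna4, or Efna5 with Epha5. For Sema6a, lower in PF than in AD, its receptor Plxna2 was at 2089.8 ± 344 in PF and 1859 ± 118 in AD (SD, n = 5 each). Efnb3, a B-type ephrin that can signal into the cell that bears it, was at 1489.6 ± 364 in ET (SD, n = 4), 1684 ± 267 in PF and 1525 ± 339 in AD (SD, n = 5 each). Its partners Ephb2 and Epha4 were at 614 ± 77.5 and 5871 ± 1877 in ET, at 569.7 ± 95.9 and 5642 ± 934 in PF, and at 649 ± 46.0 and 5497 ± 816 in AD, with the same n. These differences were smaller than the SD of at least 1 of the diets.

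Ntn1, the netrin that binds Dcc and the Unc5 receptors, was at 241 ± 21.0 in ET, 242 ± 22.9 in PF and 257 ± 19.8 in AD. Its SD of log2 values around the diet means was 0.12, beside a median of 0.21 over the 65 genes. Of the other Unc5 receptors, Unc5a was at 1924 ± 339, 1949 ± 271 and 2104 ± 214 in the same order, and Unc5c, one of those with an unadjusted p below 0.05 in PF against AD, was at 789 ± 259, 876 ± 124.5 and 734 ± 90.5. Robo1 and Robo2, the Slit receptors, were at 1304 ± 399 and 2051 ± 252 in ET, 1274 ± 201 and 2172 ± 274 in PF, and 1206 ± 133 and 2031 ± 124 in AD. Sema5a, a transmembrane semaphorin, was at 3716 ± 926, 3367 ± 799.9 and 3474 ± 552. Ntn1, Unc5a, Robo1, Robo2 and Sema5a had no unadjusted p below 0.05 in a diet comparison.

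Of the 68 genes, 28 overlap another annotated gene in GRCr8, with 37 such partners in the count table. Of these, 10 had enough counts to be tested in ET against PF and 9 in PF against AD. At adjusted p below 0.05, 3 of the 10 were called in ET against PF, beside 4.13% of all genes. In PF against AD, 2 of the 9 were called, beside 5.17% of all genes. The 3 noncoding partners called in ET against PF, named here after their values were seen, stood apart in PF: LOC120094260, which overlaps Sema3b, LOC120100877, which overlaps Sema6c, and LOC120095247, which overlaps Slit3. LOC120094260 had 3.35, 4.58, 5.81 and 5.16 normalised counts in ET, 193, 153, 151, 167 and 187 in PF, and 3.52, 5.46, 4.69, 3.33 and 5.78 in AD. Its counts in PF were 36.3-fold those in ET (log2 fold change -5.18 in ET against PF, adjusted p = 1.31e-08 by edgeR's quasi-likelihood test) and 35.3-fold those in AD (5.14, adjusted p = 2.23e-10).

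The guidance genes themselves did not show that step. Sema3b, a secreted semaphorin, was at 142, 106, 97.2 and 157 in ET, at 114, 113, 63.9, 108 and 99.2 in PF, and at 126, 119, 105, 103 and 118 in AD, with adjusted p of 0.610 for ET against PF and 0.544 for PF against AD. LOC120100877 ran from 1.01 to 3.66 in ET, 8.63 to 14.4 in PF and 1.85 to 5.01 in AD (log2 fold change -2.35 in ET against PF, adjusted p = 0.000583). Sema6c was at 143 ± 13.3, 156 ± 8.87 and 157 ± 13.98. LOC120095247 ran from 8.07 to 14.1 in ET, 24.6 to 43.2 in PF and 7.39 to 18.9 in AD (-1.61 in ET against PF, adjusted p = 0.00112, and 1.31 in PF against AD, adjusted p = 0.00229). Slit3 was at 725 ± 219, 749 ± 129 and 725 ± 101. In the ET and AD libraries of the fits, LOC120094260 had at most 5.81 counts beside at least 97.2 for Sema3b, so few Sema3b reads were counted for it there. Overlap here is between whole annotated spans on either strand, and shared exons were not looked at. The strand setting of the counting is not given in the sources used here. The part of a partner's reads in the counts of a guidance gene was not tested.

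**Figure D4:**
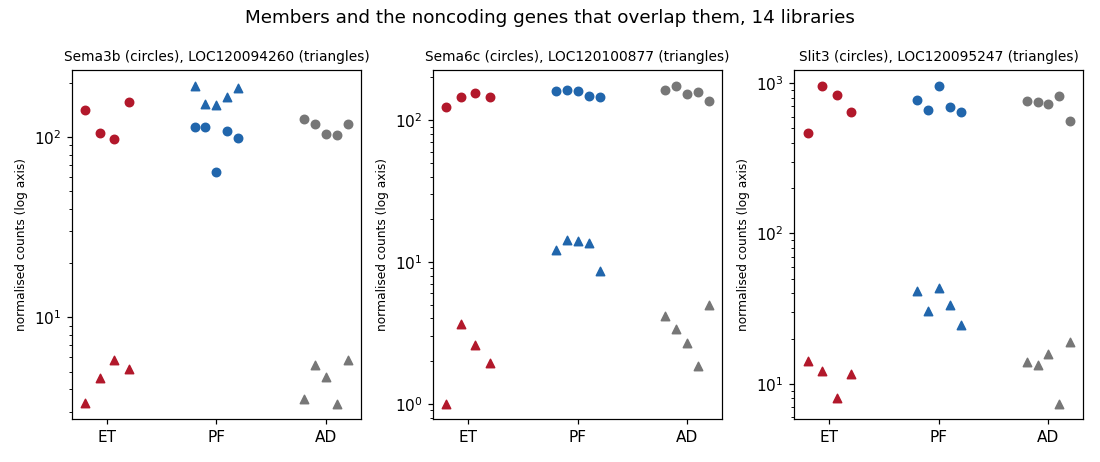
Normalised counts on a log axis (y) of Sema3b, Sema6c and Slit3 (circles) and of the noncoding genes that overlap them (triangles) in the 14 libraries, by diet (x axis). The triangles of PF stand above those of ET and AD in each panel, and the circles of the 3 diets overlap.

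In the 3 libraries rich in choroid plexus transcripts, left out of the fits, guidance genes differed from the kept libraries of the same diet in single cases. The ratios below are for 1 library per diet, in the order ET, PF and AD, with no test. Slit2 had log2 ratios of 0.47, 0.66 and 0.97, and Plxnb2, a receptor of class 4 semaphorins, 0.54, 0.72 and 0.57. Plxnb2 was at 1468, 1657 and 1545 there and at 913 to 1177 in the other 14 libraries, and was the only gene of the 65 above 0.5 in all 3, beside 2.36% of all genes. Sema3a was lower, with ratios of -1.07, -1.84 and -1.70, and was the only gene below -0.5 in all 3, beside 0.815% of all genes. Efna5 had ratios of -1.38, -0.43 and -1.25, and Sema7a of -0.10, -0.28 and -0.49. The 3 left-out Efna5 values (120, 185 and 135) lay inside the kept ranges of their diets (79.7 to 618, 76.7 to 373 and 119 to 605). So did Sema3a (69.8) and Slit2 (1025) in the left-out ET library, and Sema7a (2075) in the left-out PF library. Over the 65 genes the median ratio was -0.04, beside -0.02 for all genes.

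**Figure D5:**
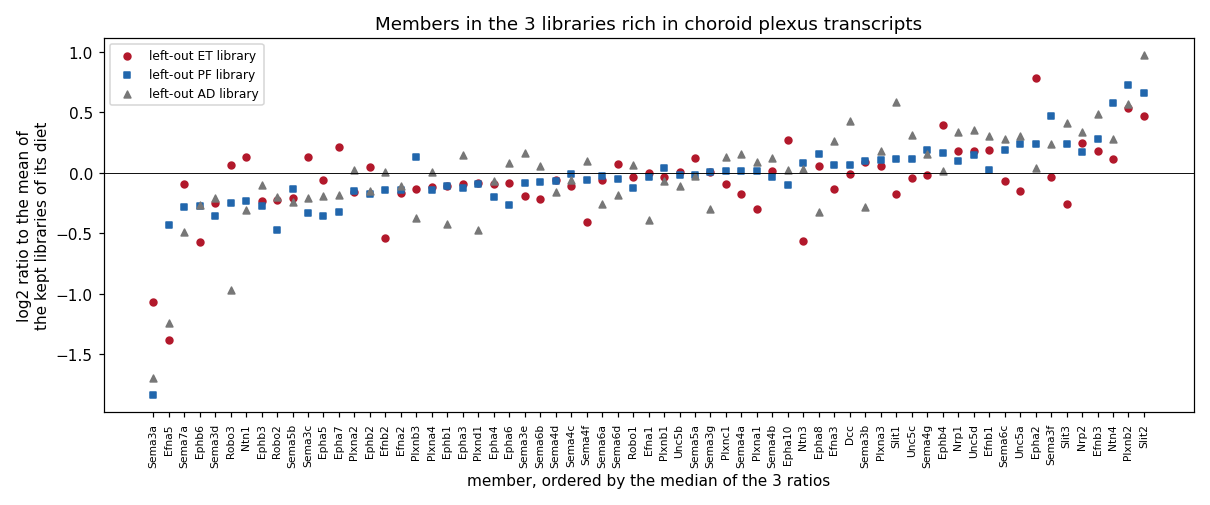
Log2 ratio (y axis) of each left-out library to the mean of the kept libraries of its diet for the 65 genes (x axis, ordered by the median of the 3 ratios). Sema3a and Efna5 lie lowest, and Plxnb2 and Slit2 highest.

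Sex and side of the brain gave no call among the 65 genes. For males against females within ET and PF, 0 genes met the study's threshold (0.0311% of all genes), 0 reached adjusted p below 0.05 (0.0436%), and Epha10 alone had an unadjusted p below 0.05 (1.87%). The next smallest p-values belonged to Plxnd1, the Sema3e receptor, and Efna2, with log2 fold changes of 0.37 and 0.19. For right against left, 0 genes met either threshold (0% of all genes for each) and 0 had an unadjusted p below 0.05 (1.78%). For the sex by diet interaction, 0 genes reached adjusted p below 0.05 (0% of all genes) and 1, Epha10, had an unadjusted p below 0.05 (1.36%). Only 3 of the 14 libraries of the fits came from the right side, none of them ET, so small side differences were not detectable.

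A further list of 66 genes that act with or beneath these receptors (co-receptors, repulsive guidance molecules, collapsin response mediators, regulators of small GTPases and cytoskeletal effectors) was examined alongside, of which 65 were tested. Of these, 1 passed adjusted p below 0.05 in each comparison with PF, beside 4.13% (ET against PF) and 5.17% (PF against AD) of all genes. That gene was Farp2, a Rac exchange factor that acts downstream of plexin A receptors and neuropilin in the response to Sema3a. Farp2 was not followed in the alternative fits. It was at 279.7 ± 19.5 in ET (SD, n = 4), 412 ± 11.3 in PF and 284 ± 14.1 in AD (SD, n = 5 each). Its log2 fold change was -0.56 in ET against PF (SE 0.06, adjusted p = 0.000177 by edgeR's quasi-likelihood test) and 0.54 in PF against AD (SE 0.05, adjusted p = 1.12e-05), and -0.02 in ET against AD. Over the list, 5 of 65 genes had an unadjusted p below 0.05 in ET against PF, 0 in ET against AD and 9 in PF against AD, shares of 7.69%, 0% and 13.8%, all below those of all genes.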

How the data were processed

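RNA from 17 rat hippocampi had been sequenced by the authors as paired-end stranded mRNA libraries, 3 technical replicates each. The authors trimmed reads with fastp, mapped them to mRatBN7.2 with Bowtie2 2.4.2 under default options, and counted fragments on exons with featureCounts 2.0.1, versions as in the submitters' processing notes. Reads could count for several overlapping features. What the authors deposited are estimated counts: each value is the mean fragment count of a gene over the 3 runs of a library, without normalisation, and 53.3% were whole (within 0.001). They were rounded to whole numbers for the tests.

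Diet, sex and side came from the sample labels, and the animal names 11f5 and 11f6 from the column names. Counts were filtered with filterByExpr, scaled by TMM and tested with edgeR 4.0.16 (R 4.3.3), quasi-likelihood, 1 fit for each diet comparison, adjusted over all genes. The SE is the absolute log2 fold change over the square root of F, and 95% intervals come from it. Log2 spreads and ratios used a pseudocount of 1. Tables and plots were made with Python 3.11.15. With 1 litter per diet, p-values measure only the spread between littermates. The fits were tested on simulated data.

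The members, lists and alternatives were chosen with earlier results of these data known. Genes named in the text were those called or with the smallest p in a comparison, with the most counts in their family, the largest spread, the largest shifts in the left-out libraries, a known hippocampal role, or mean counts under 10. Alternatives were all 17 libraries, DESeq2 1.42.0, another scaling, no filter, summed technical replicates, 1 fit of all diets, a replicate block, left hippocampi, no overlapping genes, a lower fold threshold, a sex term and leaving out each library. Symbols were matched to RefSeq GRCr8 for 84.05% of the genes. Its coordinates differ from those of mRatBN7.2, so they are given for upstream sequences only. One oligodendrocyte marker is not reported here and was left out of its list.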

Additional observations from a re-analysis of the deposited data

Results flagged for a closer look

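Single libraries far from the others of their diet were sought with Dixon's test, all 17 libraries included. Of 108 combinations of gene and diet, 11 stood out. Only genes chosen to be named, with a mean of at least 10 normalised counts, were searched. Chance flags about 1 in 20 groups, but some of these genes were chosen for large spread or for shifts in the left-out libraries. The 11 therefore cannot be set against that rate, and several fall in the same libraries. PF replicate 3 was the highest PF library for Epha4 (7265 normalised counts, the others 4905 to 5534), Epha6 (6695, the others 3796 to 4252), Plxna2 (2690, the others 1860 to 2059) and Plxna4 (4980, the others 3183 to 3577). AD replicate 6 was the lowest AD library for Epha6 (2169, the others 4153 to 4932), Plxna2 (1661, the others 1844 to 1947) and Plxna4 (2639, the others 3469 to 4002). In PF replicate 6, Plxna3 was at 651.1 (the others 796.7 to 850.4). In AD replicate 4, one of the libraries rich in choroid plexus transcripts, Plxna3 was at 785.2 (the others 676.6 to 701.9) and Sema7a at 2461 (the others 3274 to 3790). In PF animal 11f6, another of those libraries, Plxnb2 was at 1657 (the others 957.7 to 1052). The part of tissue composition in these values was not tested.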

How the results depend on the processing

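No gene of the 65 met the study's threshold under any alternative in any comparison, including absolute fold changes above 1.5. At adjusted p below 0.05 with edgeR's quasi-likelihood test, the count for ET against PF was 2. It was 1 in 1 fit of the 3 diets, 1 in left hippocampi, 1 without overlapping genes, 0 without the 3 libraries that stood apart, and 0 to 3 when single libraries were left out (0 without ET replicate 5, 3 without ET replicate 4). For PF against AD it was 3, with 0 when overlapping genes were removed, which lowers the number of genes tested, 1 without the 3 libraries, and 0 to 6 when single libraries were left out (0 without AD replicate 2, 6 without PF replicate 6). For ET against AD it was 0 throughout. No log2 fold change followed across the alternatives changed sign.

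With the replicate number as a block the counts were 2 for ET against PF, 6 for PF against AD and 0 for ET against AD. Only 2 numbers occur in both ET and PF, so that block rests on 2 pairs of libraries. Animal 11f5 has no number and was not in the block fits. In ET against PF the block called Epha10 and Efna5, and Unc5b had adjusted p = 0.184. In PF against AD it called Unc5b, Sema6a, Sema5b, Efna5, Dcc and Unc5c, the last 2 of these higher in PF, and Sema7a had adjusted p = 0.125. The numbers join different animals: correlations of same-numbered libraries ran from -0.02 to 0.59 in ET against PF and from -0.09 to 0.12 in PF against AD. In ET against PF, 1 of 2 ET libraries correlated best with its own number, and in PF against AD 1 of 4 PF libraries did. No pairing was assumed. With sex as a covariate the count for ET against PF stayed 2, and with DESeq2 it was 3 and 4 for the comparisons with PF. SEs of the 65 genes ranged from 0.06 to 0.55 in ET against PF, with a median of 0.14, and differences well above the SE could miss the threshold (Sema7a, 0.37 with SE 0.13 and adjusted p = 0.197 in ET against PF). All 17 libraries called Sema4d in both comparisons with PF (adjusted p = 0.0288 and 0.0325).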
